A study of Mus musculus with 6 samples.

Results

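The ADAMTS genes described here were *Adamts1*, *Adamts2*, *Adamts3*, *Adamts4*, *Adamts5*, *Adamts6*, *Adamts7*, *Adamts9*, *Adamts12* and *Adamts15*, which include aggrecanases and procollagen proteinases of the family and some close relatives. They were taken by name, by matching the Ensembl gene identifiers of the count tables to GENCODE M21 symbols, and were 10 of the 41388 genes counted and 10 of the 19 *Adamts* genes among them. RNA-seq was performed on primary chondrocytes from the femoral head cartilage of 21-day-old male B6/129 mice, kept for 2 days in culture medium with fetal bovine serum and given no treatment. Libraries came from 3 *Postn*-/- mice, homozygous for the *Postn* tm1Jmol allele and lacking periostin in the whole animal, and from 3 *wt* mice bred as littermates. The question addressed was whether chondrocytes of the genotypes differed at baseline, before joint injury or aging. All 10 genes passed the filter on low counts (more than 1 CPM, the count scaled to the library total, in at least 2 libraries), and 14533 genes were tested.

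ADAMTS enzymes are secreted zinc proteinases that are made with a propeptide, which furin-like convertases remove, and that bind the extracellular matrix through thrombospondin repeats. In cartilage the aggrecanases cut the core protein of aggrecan, the proteoglycan that holds water in the tissue, and in mouse models of osteoarthritis ADAMTS5 is the main aggrecanase. Other family members cut the amino-terminal propeptide from procollagens so that fibrils can form, and TIMP-3 is the main tissue inhibitor of the aggrecanases.

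Total counts of replicates 1 to 3 were 25775101, 24310717 and 20587640 for *Postn*-/- and 26572260, 22441992 and 20646419 for *wt*. At these depths 3 counts corresponded to 0.113 to 0.146 CPM, a floor that covers counting error only. The targeted gene *Postn*, which encodes the matrix protein periostin, was at 4.66, 4.27 and 5.67 normalized CPM (CPM after TMM scaling of the libraries) in *Postn*-/- and at 10.1, 10.3 and 6.90 in *wt*. Every *Postn*-/- library was below every *wt* library, and the log2 ratio of *Postn*-/- to *wt* (log2 fold change) was −0.91 (standard error, SE, 0.22, unadjusted p = 0.00362, Benjamini-Hochberg adjusted p = 0.717, edgeR quasi-likelihood test). The files hold 1 count per gene, so reads from the targeted exons could not be separated from the others. *Wt* replicate 1 stood apart from the other libraries, at 47.7 on the first principal component (31.9% of the variance) against −17.4 to −0.018 for the others, and the differences of the 10 genes are therefore given with and without it. For *Postn* the log2 fold change without it was −0.82 (unadjusted p = 0.0120). No batch was named for any library.

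Markers of chondrocytes were present in every library. Their summed level, led by *Col2a1*, was 47322, 35532 and 45980 normalized CPM in *Postn*-/- libraries against 30053, 43343 and 37360 in *wt* libraries. All 12 were tested. At an unadjusted p of 0.05 or less 2 were higher (*Col2a1* and *Col11a2*) and 0 lower, read against 3.95% and 2.35% of all tested genes. Without *wt* replicate 1, 1 was higher (*Col2a1*), against 3.49%. The median log2 fold change of the 12 was 0.20, or 0.0020 without that library. For *Col11a2* the log2 fold change was 0.52 (unadjusted p = 0.0406), or 0.34 without *wt* replicate 1 (unadjusted p = 0.0995) and 0.34 to 0.79 leaving out any 1 library (unadjusted p up to 0.118). With all libraries *Cnmd* (−0.29), *Matn1* (−0.27), *Col11a1* (−0.14) and *Hapln1* (−0.03) were negative and the other markers positive. For *Cnmd* every *Postn*-/- library was below every *wt* library (unadjusted p = 0.132, edgeR quasi-likelihood test). The part of chondrocyte content in the ADAMTS values was not tested. The 6 osteoblast markers, led by *Alpl*, summed to 1308, 1894 and 1041 in *Postn*-/- libraries against 812, 3429 and 1507 in *wt* libraries. The 9 markers of fibroblasts and perichondrium, of which 7 were tested and *Col1a2* was the most abundant, summed to 1999, 2875 and 1171 in *Postn*-/- libraries against 1659, 4150 and 1432 in *wt* libraries. The osteoblast and fibroblast sums were both highest in *wt* replicate 2, but not all of their markers were. *Alpl*, *Ibsp* and *Sp7* were highest there, whereas *Bglap*, *Bglap2* and *Dmp1* were highest in *Postn*-/- replicate 3. Of the fibroblast markers only *Col1a1* and *Col1a2* were highest in *wt* replicate 2, while *Col3a1* (100 CPM) and *Pdgfra* (6.42 CPM) were lowest there. Of the 7 tested fibroblast markers 0 had an unadjusted p of 0.05 or less, against 6.3% of all tested genes. Without *wt* replicate 1 it was also 0, against 3.49% higher and 1.96% lower. Their median log2 fold change was 0.16 with all libraries and 0.40 without *wt* replicate 1. With all libraries 0 of the 6 osteoblast markers had an unadjusted p of 0.05 or less, but without *wt* replicate 1 *Alpl* was lower (−0.97, unadjusted p = 0.0494; 1.96% of all tested genes were). Its log2 fold change was −0.58 with all libraries (unadjusted p = 0.307) and −0.97 to 0.22 leaving out 1 library, so the sign depended on the library left out. Without *wt* replicate 1 *Ibsp* (−0.79) and *Sp7* (−0.30) were also negative, but *Bglap* (0.24), *Bglap2* (0.42) and *Dmp1* (1.27) were positive. The median of the 6 osteoblast markers was 0.05 with all libraries and −0.03 without *wt* replicate 1. The macrophage and osteoclast markers summed to 332 to 506 CPM (6 of 8 tested, *Ctsk* the most abundant; 0 at an unadjusted p of 0.05 or less, but *Cd68* higher without *wt* replicate 1, at 1.05, unadjusted p = 0.0231, as were 3.49% of all tested genes; 0.56 with all libraries and 0.22 to 1.05 leaving out 1 library) and the endothelial markers to 4.19 to 9.48 (3 of 5 tested, *Pecam1* the most abundant). Red blood cell markers were close to absent, with 0 of 5 tested, 4 of 5 at 3 counts or fewer in each library, and *Hba-a2* at 0 in each. In these bulk libraries, fewer cells of a type and less RNA per cell cannot be told apart.

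The 10 genes spanned a wide range of levels. On the scale of normalized RPKM (CPM per kilobase of exon), which allows genes of different length to be compared, *Adamts1* was the highest, at 19.3 ± 8.61 (mean ± SD, n = 6 libraries). *Adamts5*, *Adamts2* and *Adamts3* followed at mean RPKM of 1.99, 1.91 and 1.80, *Adamts4* was at 0.797 and *Adamts9* at 0.490. The lowest were *Adamts15*, *Adamts7*, *Adamts6* and *Adamts12*, at mean RPKM of 0.347, 0.327, 0.314 and 0.268. The ranges of neighbours in this order did not overlap at 2 places, between *Adamts1* and *Adamts5* (a ratio of the means of 9.68) and between *Adamts3* and *Adamts4* (2.26). All other neighbours overlapped in range, although *Adamts4* was above *Adamts9* within each of the 6 libraries.

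**Figure D1:**
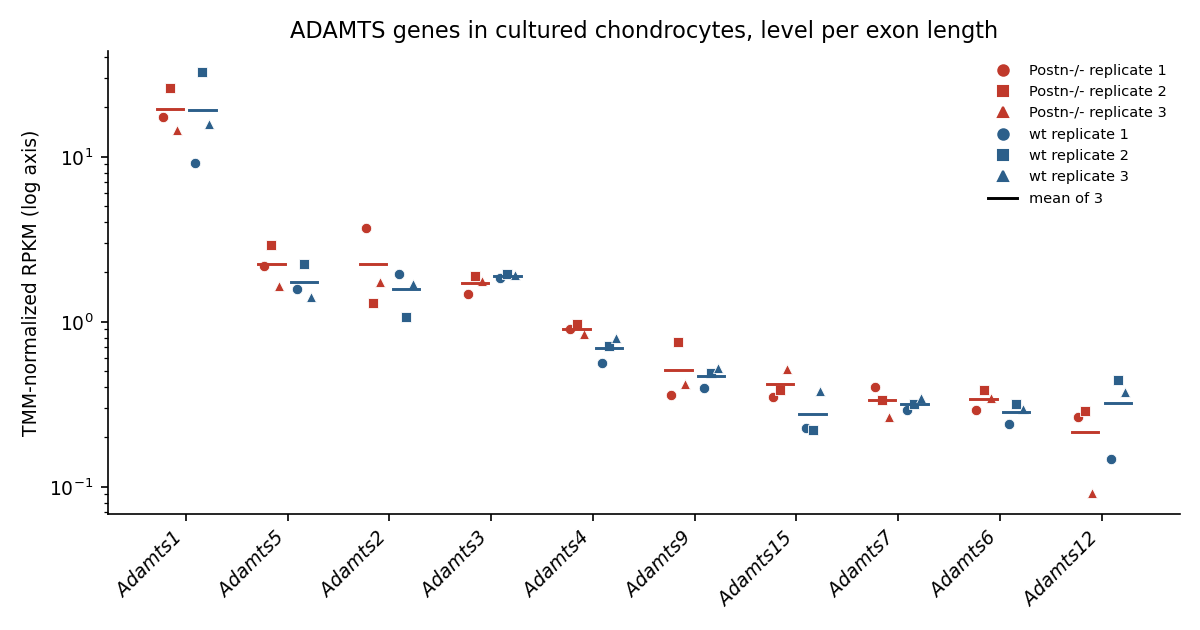
TMM-normalized RPKM (log axis) of the 10 genes in each *Postn*-/- library (red) and *wt* library (blue), ordered by the mean over 6 libraries; symbols mark the replicate and horizontal lines the mean of 3. *Adamts1* lies above all the others. The groups do not overlap for *Adamts4* (unadjusted p = 0.107, edgeR quasi-likelihood test). Every *Postn*-/- library was also above every *wt* library in 7.03% of all tested genes.

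*Adamts1* accounted for 67.8% ± 5.51 of the summed RPKM of the 10 genes in *Postn*-/- and for 67.9% ± 12.5 in *wt* (mean ± SD, n = 3), with a range of 55.9% to 80.9% over libraries. The summed RPKM itself was 27.3, 35.5 and 22.2 in *Postn*-/- libraries against 16.4, 40.5 and 23.5 in *wt* libraries. The lowest and the highest sums were thus both in *wt*.

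None of the 10 genes passed the test between genotypes. At a Benjamini-Hochberg adjusted p of 0.05 or less in edgeR's quasi-likelihood test, 0 of 10 were called, against 0.0138% (2 of 14533) of all tested genes. At an unadjusted p of 0.05 or less the count was also 0 of 10, against 6.3% of all tested genes, and it was 0 of 10 with DESeq2's Wald test and with voomWithQualityWeights in limma. It was 2 of 10 with the replicate number as a block (*Adamts5* and *Adamts15*, beside 1188 of all tested genes) and 1 of 10 without *wt* replicate 3 (*Adamts15*, beside 878). Log2 fold changes were positive for 8 genes and negative for 2, with 50.8% positive among all tested genes, and their median was 0.19 against 0.0042. Without *wt* replicate 1 the median of the 10 was 0.09, against 0.0064 over all tested genes. The lowest Benjamini-Hochberg adjusted p of the 10 in the edgeR quasi-likelihood test was 0.717. The groups did not overlap for 1 of the 10 genes, *Adamts4*, against 13.6% of all tested genes.

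**Figure D2:**
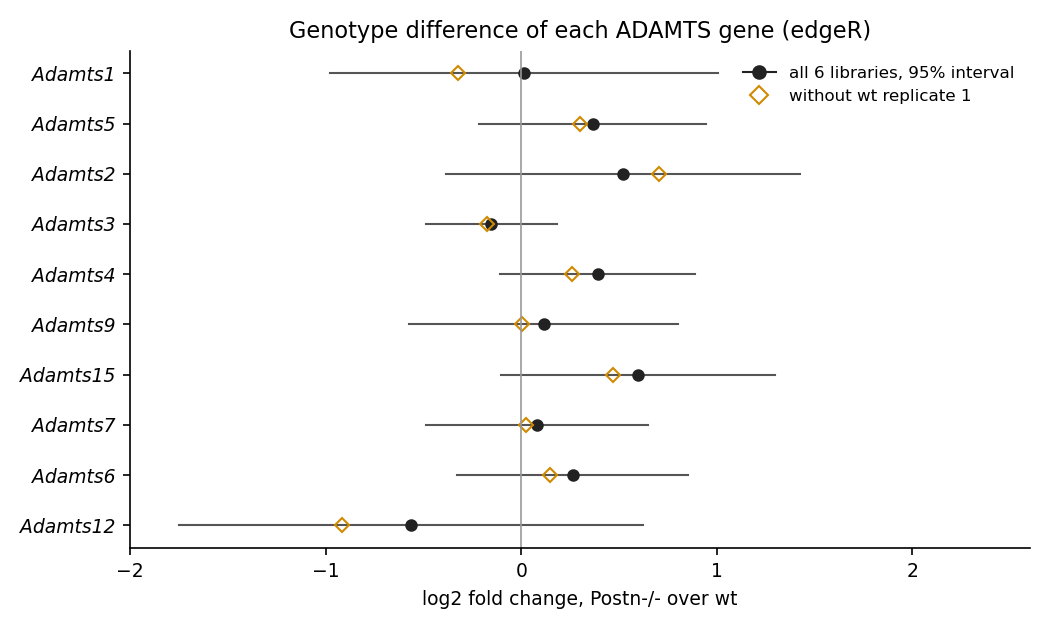
Log2 fold change of each gene, *Postn*-/- over *wt*, from edgeR with all 6 libraries (filled circles, bars for the 95% interval) and without *wt* replicate 1 (open diamonds), in the order of level. Every 95% interval includes 0, and *Adamts1* moves from 0.02 to −0.32 when *wt* replicate 1 is left out (to 0.64 without *wt* replicate 2, not drawn).

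The hyalectanases, which cut aggrecan and versican, comprised *Adamts1*, *Adamts4*, *Adamts5*, *Adamts9* and *Adamts15*. All 5 log2 fold changes were positive with all libraries, with a median of 0.37, but those of *Adamts1* and *Adamts9* changed sign in some alternatives, at −0.0069 for *Adamts1* without the filter on low counts and −0.0841 for *Adamts9* with voomWithQualityWeights, and each also when 1 library was left out. *Adamts4*, an aggrecanase that inflammatory cytokines induce in chondrocytes, lies on chromosome 1 of GRCm38 (171250421 to 171260637, plus strand). It was counted with 108, 114 and 85 reads in *Postn*-/- libraries against 70, 76 and 80 reads in *wt* libraries, which gave 4.34, 4.64 and 4.05 normalized CPM against 2.69, 3.44 and 3.83. Each *Postn*-/- library was above each *wt* library, as in 7.03% of all tested genes, and the closest pair was *Postn*-/- replicate 3 and *wt* replicate 3. The log2 fold change was 0.39 (SE 0.21, 95% interval −0.11 to 0.89, unadjusted p = 0.107, Benjamini-Hochberg adjusted p = 0.717, edgeR quasi-likelihood test). Without *wt* replicate 1, the lowest library, it was 0.26 (unadjusted p = 0.270). *Igsf8*, whose start lies 1.01 Mb from that of *Adamts4*, was also higher in every *Postn*-/- library than in every *wt* library. Its log2 fold change was 1.02 (unadjusted p = 5.33e-05, Benjamini-Hochberg adjusted p = 0.213, edgeR quasi-likelihood test) and 0.93 to 1.11 leaving out any 1 library. A link between the 2 genes was not tested.

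*Adamts5*, which encodes the main aggrecanase of mouse cartilage, lies on chromosome 16 (85856173 to 85901828, minus strand), 53.1 kb from *Adamts1*. It was counted with 441, 579 and 278 reads in *Postn*-/- libraries against 332, 400 and 239 in *wt* libraries. These corresponded to 17.7, 23.5 and 13.2 normalized CPM in *Postn*-/- libraries against 12.8, 18.1 and 11.5 in *wt* libraries. In both genotypes replicate 2 was the highest, and the groups overlapped. The means were 18.2 ± 5.17 and 14.1 ± 3.52 CPM (SD, n = 3), so their difference was smaller than the spread within *Postn*-/-. The log2 fold change was 0.37 (SE 0.25, 95% interval −0.21 to 0.95, unadjusted p = 0.183, Benjamini-Hochberg adjusted p = 0.737, edgeR quasi-likelihood test) and 0.30 without *wt* replicate 1 (unadjusted p = 0.331). Leaving out other libraries moved it further, to 0.13 without *Postn*-/- replicate 2 (unadjusted p = 0.597) and 0.59 without *wt* replicate 2 (unadjusted p = 0.0511). With the replicate number as a block it was 0.36 (unadjusted p = 0.0358, adjusted p = 0.603). As a ratio, *Postn*-/- over *wt*, the interval ran from 0.862 to 1.93, which includes both lower and higher levels of *Adamts5* in *Postn*-/-.

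*Adamts1*, a versicanase that also cuts aggrecan, lies on the same strand of chromosome 16 (85793827 to 85803113). It was at 92.2, 139 and 77.3 normalized CPM in *Postn*-/- libraries against 48.5, 174 and 83.5 in *wt* libraries. The *wt* libraries enclosed all of the *Postn*-/- libraries, with *wt* replicate 1 the lowest and *wt* replicate 2 the highest of the 6. The *Postn*-/- mean was 103 ± 32.3 and the *wt* mean 102 ± 64.6 CPM (SD, n = 3). The log2 fold change was 0.02 (SE 0.43, 95% interval −0.98 to 1.01, unadjusted p = 0.973). Without *wt* replicate 1 the value was −0.32 (unadjusted p = 0.380), and without *wt* replicate 2 it was 0.64 (unadjusted p = 0.0763). As a ratio, the interval of this most abundant gene of the 10 ran from 0.508 to 2.01.

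*Adamts15*, which encodes a proteinase that cuts versican and aggrecan, had the largest positive log2 fold change of the 10 genes. On chromosome 9 (30899155 to 30922452, minus strand), it was counted with 52, 56 and 64 reads in *Postn*-/- libraries against 35, 29 and 47 in *wt* libraries, or 2.09, 2.28 and 3.05 against 1.35, 1.31 and 2.25 normalized CPM. The groups overlapped through *wt* replicate 3. The log2 fold change was 0.60 (SE 0.30, 95% interval −0.10 to 1.30, unadjusted p = 0.0851, Benjamini-Hochberg adjusted p = 0.717, edgeR quasi-likelihood test) and 0.47 without *wt* replicate 1 (unadjusted p = 0.206). Without *wt* replicate 3 the unadjusted p was 0.0211 at a log2 fold change of 0.89, and the Benjamini-Hochberg adjusted p of that edgeR quasi-likelihood test was 0.724. *Adamts9*, a versicanase on chromosome 6 (92772699 to 92943492, minus strand), was at 4.50, 9.40 and 5.24 CPM in *Postn*-/- libraries against 4.998, 6.11 and 6.61 in *wt* libraries. *Postn*-/- replicate 2 was the highest and the other 2 *Postn*-/- libraries were within or below the *wt* range, with a log2 fold change of 0.11 (SE 0.30) with all libraries and 0.0060 without *wt* replicate 1. Of its exon bases 12.0% are shared with *A730049H05Rik* and *Gm15737*, so its counts are less certain.

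The procollagen N-proteinases *Adamts2* and *Adamts3* differed in their spread between libraries. *Adamts2*, which trims the fibrillar procollagens of skin and bone, lies on chromosome 11 (50602084 to 50807573, plus strand) and was at 34.6, 12.2 and 16.3 normalized CPM in *Postn*-/- libraries against 18.1, 9.999 and 15.9 in *wt* libraries. *Postn*-/- replicate 1 was the highest library, and the other 2 *Postn*-/- libraries lay within the *wt* range. The log2 fold change was 0.52 (SE 0.39, 95% interval −0.39 to 1.42, unadjusted p = 0.222), 0.70 without *wt* replicate 1 and −0.0468 without *Postn*-/- replicate 1, so its sign rested on that library. *Adamts3*, which cuts type II procollagen and also takes part in the activation of VEGF-C, lies on chromosome 5 (89677087 to 89883334, minus strand). It was at 11.3, 14.5 and 13.5 CPM in *Postn*-/- libraries against 14.1, 14.8 and 14.7 in *wt* libraries. It had the smallest spread within a genotype of the 10 genes, with a log2 fold change of −0.15 (SE 0.14, 95% interval −0.49 to 0.18, unadjusted p = 0.321) and −0.18 without *wt* replicate 1, but −0.05 without *Postn*-/- replicate 1 (unadjusted p = 0.723). As a ratio this interval ran from 0.713 to 1.13, the narrowest of the 10.

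*Adamts7* and *Adamts12* encode a pair of related proteinases that cut cartilage oligomeric matrix protein. *Adamts7*, on chromosome 9 (90163069 to 90208071, plus strand), was at 2.53, 2.11 and 1.67 normalized CPM in *Postn*-/- libraries against 1.85, 1.99 and 2.16 in *wt* libraries, with a log2 fold change of 0.08 (SE 0.25, unadjusted p = 0.751) and 0.03 without *wt* replicate 1. The 3 *wt* libraries lay within the *Postn*-/- range, and the log2 fold change had the opposite sign, −0.0370, with voomWithQualityWeights. *Adamts12*, on chromosome 15 (11064790 to 11349231, plus strand), was the least abundant per length and was counted with 41, 44 and 12 reads in *Postn*-/- libraries against 24, 61 and 49 in *wt* libraries. These gave 1.65, 1.79 and 0.572 normalized CPM in *Postn*-/- libraries against 0.923, 2.76 and 2.35 in *wt* libraries. Each genotype thus had 1 library well below the others, *Postn*-/- replicate 3 and *wt* replicate 1. The log2 fold change was −0.56 (SE 0.51, 95% interval −1.75 to 0.62, unadjusted p = 0.304) and −0.92 without *wt* replicate 1 (unadjusted p = 0.0776). It was −0.22 without *Postn*-/- replicate 3 (unadjusted p = 0.661) and −0.26 without *wt* replicate 2 (unadjusted p = 0.665), so its size rested on single libraries. *Adamts6*, a proteinase linked to fibrillin microfibrils, lies on chromosome 13 (104287835 to 104496695, plus strand) and was at 1.41, 1.87 and 1.67 CPM in *Postn*-/- libraries against 1.15, 1.54 and 1.44 in *wt* libraries. Its groups overlapped, and the log2 fold change was 0.26 (SE 0.26, unadjusted p = 0.334) and 0.15 without *wt* replicate 1.

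The spread between libraries of 1 genotype differed among the 10 genes. The pooled within-genotype SD of log2 CPM was 0.824 for *Adamts12*, 0.721 for *Adamts1* and 0.633 for *Adamts2*, which was larger than that of 97.6%, 96.3% and 94.0% of all tested genes. It was 0.135 for *Adamts3*, larger than that of 22.3% of tested genes. These shares are over tested genes of all levels, and counting error, which is relatively larger at low counts, was not separated from the SD. *Adamts12* had 12 to 61 reads per library, against 221 to 861 for *Adamts2* and 1262 to 3838 for *Adamts1*. *Adamts1* and the osteoblast marker sum were both highest in *wt* replicate 2, next highest in *Postn*-/- replicate 2 and lowest in *wt* replicate 1. *Alpl*, *Ibsp* and *Sp7* shared these positions, but *Bglap*, *Bglap2* and *Dmp1* were highest in *Postn*-/- replicate 3. *Bglap* (149 CPM) and *Bglap2* (53.6 CPM) were next highest in *wt* replicate 1, and *Dmp1* was lowest in *wt* replicate 2 (0.226 CPM). The part of other cell types in the *Adamts1* values was not tested. Of the 10 genes, 4 were highest in *Postn*-/- replicate 2 (15% of all tested genes were), 3 in *wt* replicate 2 (18.4%) and 0 in *wt* replicate 1 (24.6%), and 3 were lowest in *wt* replicate 1 (26.1%).

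**Figure D3:**
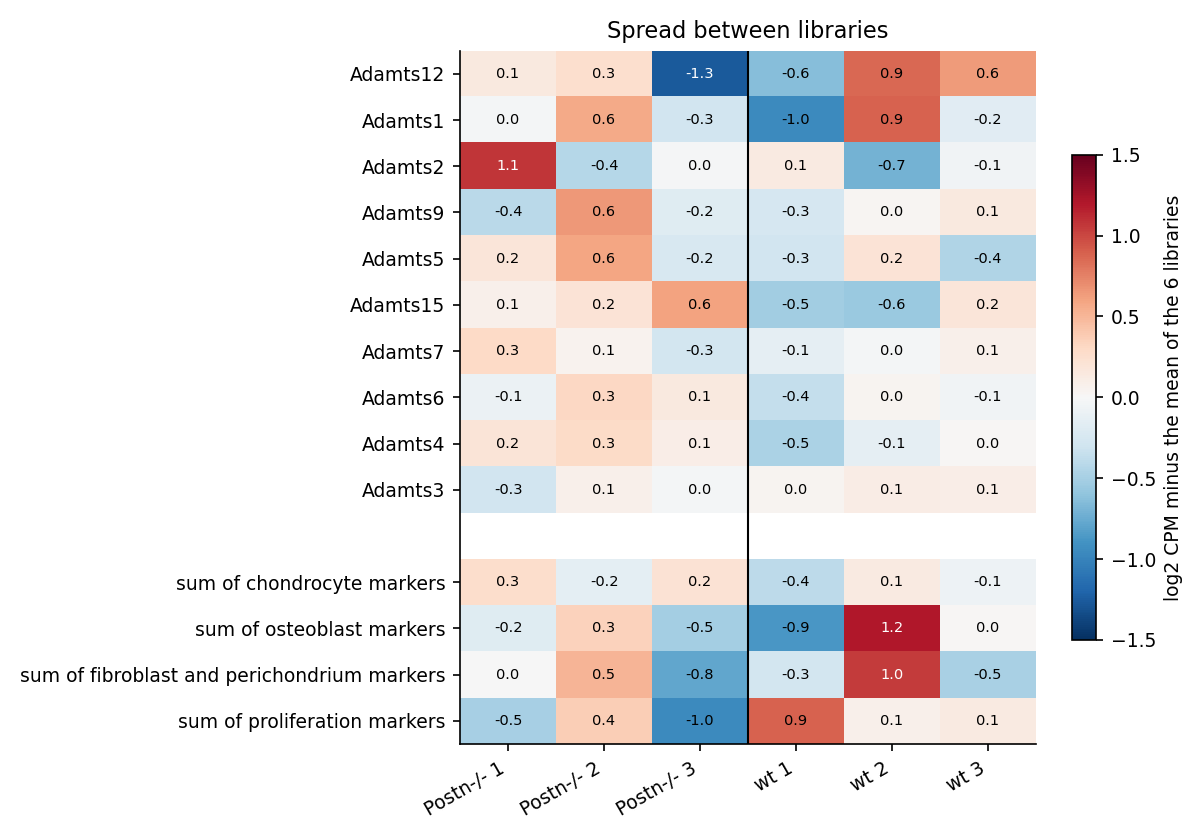
Log2 CPM of each gene and of 4 marker sums in each library, minus the mean of the 6 libraries (red above, blue below), with the genes ordered from the largest to the smallest spread within a genotype. *Adamts1* and the osteoblast marker sum are both highest in *wt* replicate 2 and lowest in *wt* replicate 1, whereas *Adamts2* is highest in *Postn*-/- replicate 1. Within that sum *Bglap*, *Bglap2* and *Dmp1*, which are not drawn singly, are highest in *Postn*-/- replicate 3.

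The proximal promoters of the 3 genes with the largest spread within a genotype are shown to compare their base composition. RefSeq promoters (GRCm38.p6) were found for 5 of the 10 genes, and the 250 bases before the transcription start are given 5′ to 3′ on the strand of the gene. Capitals mark matches, on either strand, to the TATA box (TATAAA) or the GC box (GGGCGG), which did not overlap each other. The windows are chr16:85803114-85803363 (minus strand) for *Adamts1*, chr11:50601835-50602084 (plus strand) for *Adamts2* and chr15:11064523-11064772 (plus strand) for *Adamts12*.
Adamts1: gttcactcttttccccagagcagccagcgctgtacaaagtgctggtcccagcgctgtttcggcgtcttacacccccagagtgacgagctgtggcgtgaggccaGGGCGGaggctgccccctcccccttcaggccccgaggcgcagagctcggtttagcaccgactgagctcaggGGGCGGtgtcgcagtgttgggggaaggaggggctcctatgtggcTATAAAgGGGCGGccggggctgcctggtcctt
Adamts2: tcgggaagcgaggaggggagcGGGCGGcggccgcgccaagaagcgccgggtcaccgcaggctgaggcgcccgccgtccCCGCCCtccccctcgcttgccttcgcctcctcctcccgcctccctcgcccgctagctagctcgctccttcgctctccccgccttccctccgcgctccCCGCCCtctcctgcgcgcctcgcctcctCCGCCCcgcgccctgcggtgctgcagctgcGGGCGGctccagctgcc
Adamts12: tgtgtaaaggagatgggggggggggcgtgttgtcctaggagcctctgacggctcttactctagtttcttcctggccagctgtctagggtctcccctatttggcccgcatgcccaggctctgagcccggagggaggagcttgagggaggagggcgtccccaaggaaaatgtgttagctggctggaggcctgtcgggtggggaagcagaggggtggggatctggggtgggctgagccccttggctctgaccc
The *Adamts1* window held a TATA box that began 32 bases before the start and 3 GC boxes, the *Adamts2* window held 5 GC boxes and no TATA box, and the *Adamts12* window held neither. The GC content was 65.6%, 78% and 63.2%, against a median of 52.4% over 32851 promoters, of which 12.4% held TATAAA and 32.7% held GGGCGG. Matches to a RUNX motif (TGTGGT, in 14% of all promoters), an AP-1 motif (TGANTCA, 6.75%) and the NF-kappaB motif (1.41%) were also searched on both strands, and none was in the 5 windows.

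Of the other 9 *Adamts* genes, 4 passed the filter, and 0 of these 4 had an unadjusted p of 0.05 or less in either direction in edgeR's quasi-likelihood test, against 6.3% of all tested genes (median log2 fold change 0.19, or 0.09 without *wt* replicate 1). *Adamts14*, the third procollagen N-proteinase, was at 6.51, 7.04 and 4.38 normalized CPM in *Postn*-/- libraries against 4.498, 7.37 and 4.74 in *wt* libraries. *Adamts10*, a relative of *Adamts6*, was at 30.3, 24.2 and 24.8 CPM in *Postn*-/- libraries against 28.2, 19.3 and 26.0 in *wt* libraries. The groups overlapped for both. *Adamts8*, 20.1 kb from *Adamts15*, had 2 to 13 counts per library and was not tested, and neither were *Adamts13*, *Adamts16*, *Adamts19* and *Adamts20*, with 6 to 18 counts. The ADAMTS-like proteins, which share the ancillary domains and lack the catalytic one, were all tested, and 0 of 7 had an unadjusted p of 0.05 or less (median 0.09), against 6.3% of all tested genes. Without *wt* replicate 1 the median was 0.42, and 2 were higher and 0 lower at that threshold, against 3.49% and 1.96%: *Adamtsl3* (0.42, unadjusted p = 0.0478; 0.13 with all libraries and −0.08 to 0.42 leaving out 1) and *Adamtsl5* (0.59, unadjusted p = 0.0462; 0.46 with all libraries and 0.26 to 0.59 leaving out 1), each at an adjusted p of 0.833. *Adamtsl4* was high in replicate 1 of both genotypes, at 29.3, 18.7 and 19.5 CPM in *Postn*-/- libraries against 30.1, 10.6 and 18.7 in *wt* libraries. *Adamtsl2* was also high there, at 4.10, 0.488 and 2.38 against 4.61, 0.860 and 2.25.

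Among the substrates of the hyalectanases and their partners, 0 of 7 had an unadjusted p of 0.05 or less in the edgeR test, against 6.3% of all tested genes (median log2 fold change 0.20, or 0.03 without *wt* replicate 1). *Acan*, which encodes aggrecan, was at 3399, 2375 and 3764 normalized CPM in *Postn*-/- libraries against 1604, 3101 and 3099 in *wt* libraries, with a log2 fold change of 0.29 (SE 0.29, unadjusted p = 0.343) that was 0.04 without *wt* replicate 1 and 0.04 to 0.46 leaving out any 1 library. *Vcan*, which encodes versican, was at 7.35, 7.85 and 8.10 in *Postn*-/- libraries against 6.73, 3.89 and 7.09 in *wt* libraries, and the log2 fold change was 0.39 (SE 0.24, unadjusted p = 0.146), or 0.50 without *wt* replicate 1 (unadjusted p = 0.111) and 0.17 to 0.54 leaving out any 1 library (unadjusted p = 0.0964 to 0.379). The groups overlapped for *Acan*. They did not for *Vcan*, 1 of the 7 genes, against 13.6% of all tested genes in either direction. Of 6 procollagen genes, 1 was higher and 0 were lower at an unadjusted p of 0.05 or less, read against 3.95% and 2.35% of all tested genes (median 0.05, or 0.17 without *wt* replicate 1). The 1 gene was *Col2a1*, which encodes type II collagen, at 15767, 13696 and 18081 CPM in *Postn*-/- libraries against 8271, 11867 and 9567 in *wt* libraries. Every *Postn*-/- library was above every *wt* library, and the log2 fold change was 0.68 (SE 0.21, unadjusted p = 0.0125, Benjamini-Hochberg adjusted p = 0.717, edgeR quasi-likelihood test), or 0.56 without *wt* replicate 1 (unadjusted p = 0.0422) and 0.65 without *wt* replicate 3 (unadjusted p = 0.0522). It did not pass the adjusted threshold.

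The inhibitors and clearance receptors gave 0 of 6 at an unadjusted p of 0.05 or less (median log2 fold change 0.09), against 6.3% of all tested genes. Without *wt* replicate 1 the median was 0.16, and 1 was higher and 0 were lower (3.49% and 1.96% of all tested genes): *Timp2*, at 0.32 (unadjusted p = 0.0383, adjusted p = 0.833) against −0.13 with all libraries and −0.34 to 0.32 leaving out any 1. *Timp3*, which encodes the main inhibitor of ADAMTS4 and ADAMTS5, was at 15569, 11555 and 11466 normalized CPM in *Postn*-/- libraries against 18990, 10101 and 13502 in *wt* libraries, with a log2 fold change of −0.14 (SE 0.27, unadjusted p = 0.611) that was 0.12 without *wt* replicate 1 and −0.34 to 0.12 leaving out any 1 library. *Timp3* was thus highest in *wt* replicate 1, the library in which *Adamts4* was lowest. Per exon length *Timp3* exceeded *Adamts5* by 487 to 1478-fold and *Adamts4* by 1472 to 4167-fold within a library. The log2 ratio of *Adamts4* to *Timp3* counts was −11.5 ± 0.267 for *Postn*-/- and −12.0 ± 0.667 for *wt* (mean ± SD, n = 3; difference 0.51, two-sided exact permutation p = 0.3), and the difference was 0.13 without *wt* replicate 1 and 0.76 without *wt* replicate 2. That of *Adamts5* to *Timp3* was −9.49 ± 0.479 for *Postn*-/- and −9.95 ± 0.739 for *wt* (difference 0.46, n = 3, exact permutation p = 0.4), with a difference of 0.17 without *wt* replicate 1, 0.19 without *Postn*-/- replicate 2 and 0.88 without *wt* replicate 2. *Lrp1*, which encodes the endocytic receptor that clears ADAMTS5, was at 304, 489 and 366 CPM in *Postn*-/- libraries against 386, 293 and 310 in *wt* libraries.

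The C-proteinases, which cut the other end of procollagen, and their enhancers gave 0 of 4 tested at an unadjusted p of 0.05 or less, against 6.3% of all tested genes (median 0.11, or 0.33 without *wt* replicate 1), and *Tll2* was not tested at 3 to 16 counts. *Bmp1*, the main C-proteinase, was at 24.6, 33.8 and 19.9 normalized CPM in *Postn*-/- libraries against 20.5, 44.3 and 25.1 in *wt* libraries. The log2 ratio of *Adamts2* to *Bmp1* was −0.42 ± 0.991 for *Postn*-/- and −0.99 ± 1.02 for *wt* (difference 0.57, n = 3, exact permutation p = 0.6), smaller than either SD, and without *wt* replicate 2 the difference was −0.0034. Adjusted by Benjamini-Hochberg over the 3 ratios computed, each exact permutation p was 0.6, and 0.1 is the smallest p that 3 libraries against 3 allow.

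Of the 8 genes for activation, secretion and matrix binding of ADAMTS proteins, 1 was higher and 0 were lower at an unadjusted p of 0.05 or less (median 0.06), read against 3.95% and 2.35% of all tested genes; without *wt* replicate 1 the counts were the same, against 3.49% and 1.96%, and the median was −0.0716. *Pcsk5*, which encodes a furin-like proprotein convertase, was at 7.63, 7.40 and 5.72 normalized CPM in *Postn*-/- libraries against 2.54, 4.39 and 4.89 in *wt* libraries. The groups did not overlap, and the log2 fold change was 0.82 (SE 0.28, unadjusted p = 0.0183, Benjamini-Hochberg adjusted p = 0.717, edgeR quasi-likelihood test), or 0.58 without *wt* replicate 1 (unadjusted p = 0.0336) and 0.74 without *Postn*-/- replicate 1 (unadjusted p = 0.0571). *Furin* itself was at 48.0, 43.2 and 43.1 CPM in *Postn*-/- libraries against 33.4, 48.9 and 43.6 in *wt* libraries, with overlapping groups and a log2 fold change of 0.09 (SE 0.15) that was −0.0465 without *wt* replicate 1 and −0.0465 to 0.22 leaving out any 1 library. *Pcsk6*, another convertase, was at 151, 174 and 181 CPM in *Postn*-/- libraries against 107, 167 and 121 in *wt* libraries, with a log2 fold change of 0.36 (SE 0.17, unadjusted p = 0.0761), or 0.22 without *wt* replicate 1 (unadjusted p = 0.213) and 0.22 to 0.57 leaving out any 1 library (unadjusted p = 0.00352 to 0.213).

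Of 12 upstream regulators of the aggrecanases, 9 were tested, and 1 was higher and 0 were lower at an unadjusted p of 0.05 or less (median 0.10, or 0.11 without *wt* replicate 1), read against 3.95% and 2.35% of all tested genes. This gene was *Nfkbia*, which encodes an inhibitor and target of NF-kappaB. It was at 39.1, 38.8 and 38.6 normalized CPM in *Postn*-/- libraries against 26.95, 25.8 and 28.8 in *wt* libraries. The spread within each genotype was small and the groups did not overlap, with a log2 fold change of 0.51 (SE 0.10, unadjusted p = 0.00104, Benjamini-Hochberg adjusted p = 0.717, edgeR quasi-likelihood test), also 0.51 without *wt* replicate 1. Without that library 2 were higher and 0 lower (3.49% and 1.96% of all tested genes), the second being *Epas1*, at 0.93 (unadjusted p = 0.00168, adjusted p = 0.833) against 0.26 with all libraries (unadjusted p = 0.524) and −0.04 to 0.93 leaving out any 1. The cytokine genes that induce aggrecanases did not pass the filter, with 0 to 2 counts of *Il1b*, 0 to 3 of *Tnf* and 4 to 14 of *Il6* per library, and were not tested. *Runx2*, a transcription factor of hypertrophic chondrocytes and osteoblasts, was at 37.7, 50.4 and 33.3 CPM in *Postn*-/- libraries against 32.6, 59.9 and 38.1 in *wt* libraries. Like *Adamts1*, it was highest in replicate 2 of each genotype.

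**Figure D4:**
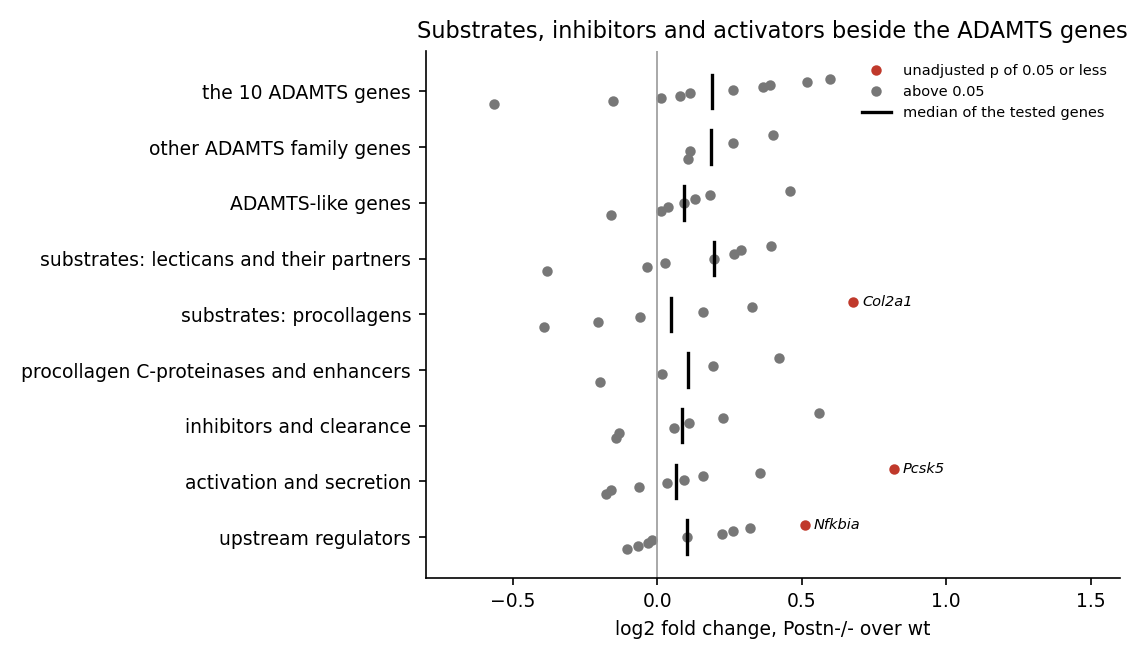
Log2 fold change, *Postn*-/- over *wt*, of each tested gene in the 10 ADAMTS genes and 8 related lists (points), with the list's median (vertical bar); red points have an unadjusted p of 0.05 or less in the edgeR test. The 3 red points are *Col2a1*, *Pcsk5* and *Nfkbia*, and the medians lie between 0.05 and 0.20 with all libraries.

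The genes nearest to *Adamts4* and *Adamts5* in their pattern over the 6 libraries were found by the root mean square difference of gene-centred log2 CPM. For *Adamts4* they were *B930082K07Rik* (0.0374), *Mrpl3* (0.0463) and *Piezo1* (0.0621), against a median of 0.330 over all tested genes. For *Adamts5* they were *Epha4* (0.0354), *Agap3* (0.107) and *Zfp467* (0.111), against a median of 0.420. With 6 libraries and 14533 genes, close matches in so few points are a description of these libraries.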

How the data were processed

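RNA was sequenced from chondrocytes of 3 *Postn*-/- and 3 *wt* mice, grouped by their labels, as 50-base single-end reads. The authors aligned reads with STAR 2.0.4b to Ensembl release 76 and deposited raw counts per gene from featureCounts 1.4.5; strand use is not stated. The deposited CPM are counts scaled to the library total, and the deposited RPKM are CPM per kilobase of exon; both were only checked against the counts. The submitters' notes name build mm9, but 98.8% of matched genes start within 10 kb of their GENCODE M21 (GRCm38) position; 40340 of 41388 identifiers matched (97.5%).

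Genes above 1 CPM in at least 2 libraries were kept and 355 rRNA genes left out, leaving 14533. Counts were normalized by TMM and compared without covariates by edgeR 4.0.16 (R 4.3.3) with the quasi-likelihood test and Benjamini-Hochberg adjustment. SE was obtained by dividing the size of the log2 fold change by the square root of F. Normalized CPM and RPKM were computed from the counts. Count ratios used 0.5 added counts and a two-sided exact permutation test. Chi-square per degree of freedom was 31.2 to 96.6 over the 15 library pairs, so none was a repeat. The script was tested on simulated data.

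Named genes were all 10 ADAMTS genes, *Postn*, *Igsf8*, the listed pathway genes and the 3 genes nearest in pattern to *Adamts4* and *Adamts5*. Every library's value was given for *Adamts4*, *Adamts5* and the most and least abundant of the 10. Further list genes were singled out after their values were seen, *Col2a1*, *Pcsk5* and *Nfkbia* among them. The members and lists were chosen with earlier results of these data known. Alternatives were voomWithQualityWeights (limma 3.58.1) without and with 2 surrogate variables (sva 3.50.0), DESeq2 1.42.0, its size factors in edgeR, other filters, a replicate block and leaving out each library; the list counts without *wt* replicate 1 were added after seeing the data.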

Additional observations from a re-analysis of the deposited data

How the results depend on the processing

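Over 129 refits of the 10 ADAMTS genes under the alternatives, 120 kept the sign and 0 passed the adjusted threshold (lowest adjusted p = 0.369); 6 genes kept their sign in every alternative run. Signs reversed for *Adamts1* without a filter (−0.0069; −0.32 to 0.64 leaving out 1 library), *Adamts7* (voomWithQualityWeights −0.0370; −0.0729 to 0.22), *Adamts9* (voomWithQualityWeights −0.0841; −0.28 to 0.31), *Adamts2* (−0.0468 to 0.79 leaving out 1 library) and the *Adamts2* to *Bmp1* ratio (−0.0034, without *wt* replicate 2, to 1.10); the cause was not tested. Against 2 genes called and 916 at an unadjusted p of 0.05 or less by edgeR, voomWithQualityWeights called 1, with 2 surrogate variables 4 (1997 unadjusted), DESeq2 10, edgeR without a filter 9 (1797 unadjusted) and with more than 1 CPM in all 6 libraries 0 (806 unadjusted), where *Adamts12* was not tested. Leaving out 1 library gave 1 to 2 calls, 425 to 1257 genes unadjusted and 0 to 1 of the 10 ADAMTS genes, *Adamts15* without *wt* replicate 3. Same-numbered libraries are different mice. Their deviations correlated at r = 0.0824, 0.155 and 0.143 across genes, and each library correlated best with its own number, a hint from the data and not the design. With the replicate number as a block, 1 gene was called, 1188 had an unadjusted p of 0.05 or less, and 2 of the 10 did, *Adamts5* (0.36, unadjusted p = 0.0358) and *Adamts15* (0.62, unadjusted p = 0.0372), both with a Benjamini-Hochberg adjusted p of 0.603 in the edgeR quasi-likelihood test. The fewest counts behind the 10 were those of *Adamts12*, *Adamts6*, *Adamts7* and *Adamts15*, at 12 to 64 per library.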

Other observations

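The proliferation markers ranged widely over the libraries. The 8 markers, led by *Top2a*, summed to 247, 450 and 181 normalized CPM in *Postn*-/- libraries against 646, 367 and 382 in *wt* libraries. The highest sum was in *wt* replicate 1 and the lowest in *Postn*-/- replicate 3. The median log2 fold change of the 8 was −0.63 (−0.30 without *wt* replicate 1), and 0 were higher and 1 was lower at an unadjusted p of 0.05 or less in edgeR's quasi-likelihood test, read against 3.95% and 2.35% of all tested genes; without *wt* replicate 1 it was 0 and 0, against 3.49% and 1.96%. This gene was *Ccnb1*, a cyclin of mitosis, at 13.9, 25.1 and 11.5 CPM in *Postn*-/- libraries against 37.5, 21.0 and 26.5 in *wt* libraries, with a log2 fold change of −0.75 (SE 0.32, unadjusted p = 0.0467), or −0.50 without *wt* replicate 1 (unadjusted p = 0.163) and −1.16 to −0.50 leaving out any 1 library. Their part in the ADAMTS values was not tested. The 5 smooth muscle and pericyte markers, led by *Cspg4*, summed to 350 to 594 CPM, with 1 higher (*Rgs5*) and 0 lower, and the 4 skeletal muscle markers, led by *Tnnt3*, to 15.4 to 26.4 CPM, with 0 higher and 1 lower (*Acta1*) of 2 tested, read against the same shares. Leaving out 1 library gave *Rgs5* log2 fold changes of 0.90 to 1.65 (unadjusted p = 0.00433 to 0.128; 0.0916 without *wt* replicate 1) around 1.24, and *Acta1* −1.62 to −0.74 (unadjusted p = 0.00195, without *wt* replicate 1, to 0.0541) around −1.30.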
